A study of Oryza sativa Japonica Group with 49 samples.

Results

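Of the 55986 rice gene models counted in these libraries, 80 rose under drought and fell under heat in seedlings of the japonica variety ZH11. A gene was a member if its lowest drought library was over 2-fold above its highest normal library, its highest heat library was under 0.5 times its lowest normal library, and its mean under normal conditions was at least 1 CPM (the count of a gene over the library total, times 1000000). This rule chose the 80 genes by their values in 9 ZH11 seedling libraries, 3 each under normal (NC), drought (DS) and heat (HS) conditions, so the pattern in these libraries is a description and no finding. Of the 18319 genes with a mean of at least 1 CPM in the normal libraries, 2735 passed the drought condition and 4383 the heat condition. Both of these sets include the 80 members. What follows describes the 80 genes in the 22 libraries that the rule did not use.

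The study looked for NAC transcription factors that act in both drought and heat tolerance of rice. Besides the ZH11 seedlings, the stress experiment held seedlings of a further japonica variety, DJ, under NC and DS (3 libraries each), and panicles of ZH11 under NC and HS (2 libraries each). A separate line comparison held seedlings of onac023 and of DJ-WT under drought or heat, 3 libraries each, with no normal condition. onac023 is a T-DNA insertion mutant of ONAC023 in the DJ background, a single insertion line, and DJ-WT is the wild type that segregated from its heterozygous progeny. Seedlings were at the 4-leaf stage, and for all groups the labels give 7 d of drought and 6 h at 45 °C, while the methods of the paper give other durations. According to these methods, the replicates of a line were repeats of the treatment with several seedlings each, so the p-values measure the spread between such repeats. In bulk tissue, fewer cells of a type and less RNA per cell cannot be told apart.

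Drought and heat often strike rice together, but they are sensed and answered in part by different routes. Loss of water raises abscisic acid, which acts through transcription factors of the bZIP, NAC and other families to induce protective proteins such as dehydrins. High temperature releases heat shock factors, which induce chaperones that hold and refold damaged proteins, while much other transcription declines. Many rice genes respond to both stresses in the same direction, whereas the 80 genes described here rose under the first and fell under the second in one variety.

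Total counts ranged from 39789339 to 132110274 per library. In ZH11 seedlings they were 88536976 to 117202626 under normal conditions, 40829670 to 58129570 under drought and 79074811 to 96208927 under heat. DJ seedlings had 39789339 to 59873534 over both conditions. The drought condition of the rule thus crosses a difference in totals. It also crosses one in the most frequent low count, 4 in the normal and heat libraries of ZH11 seedlings and 2 in their drought libraries. The part of neither was tested. Marker genes of floral organs, heat and drought followed the labels, while those of green leaf did not set panicles apart from seedlings. The summed level of 4 leaf photosynthesis genes was 7000 to 9018 CPM in panicles and 174 to 19665 CPM in seedlings. The summed level of 7 floral MADS-box genes was 1719 to 2000.1 CPM in panicles and at most 49.2 CPM in seedlings, that of 5 small heat shock protein genes was at least 10511 CPM in every heat library and at most 2811 CPM in every other library, and that of 4 dehydrin genes was at least 5624 CPM in every drought library and at most 489.8 CPM elsewhere. The ONAC023 gene held 0 to 9 counts in the onac023 libraries and 65 to 257 counts in the DJ-WT libraries. When libraries were scaled by their totals, the median gene was 0.43 higher in drought than in normal ZH11 seedlings on the log2 scale, and it fell by 0.64 in DJ seedlings under drought, by 0.46 in panicles under heat and by 0.06 in ZH11 seedlings under heat. CPM values below carry these shifts, whereas the log2 fold changes are from edgeR with TMM normalization, which removes most of them.

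The DJ-WT libraries went against their label and are treated separately throughout. Of genes with at least 1 CPM in every seedling library of 1 variety and at most 0.1 CPM in every seedling library of the other, there were 36 for ZH11 and 54 for DJ, and the DJ-WT drought libraries held all 36 and all 54 at 0.5 CPM or more, whereas the onac023 drought libraries held 18 to 23 of the ZH11 genes and 53 to 54 of the DJ genes. No member is among these genes. The onac023 libraries thus also held ZH11 genes that were at most 0.1 CPM in every DJ seedling library, and where these came from was not tested. Over the 20935 genes with at least 1 CPM in DJ-WT under drought, each DJ-WT drought library was set against the plain means of 1 ZH11 and 1 DJ drought library. The median difference to the nearest of the 9 means was 0.08, 0.11 and 0.11 on the log2 scale for the 3 libraries, and to the farthest 0.19 to 0.23. Replicates of DJ-WT differed from each other by a median of 0.11 to 0.19, those of DJ by 0.14 to 0.24 and those of ZH11 by 0.16 to 0.31, while the nearest mean was 0.43 to 0.47 away for onac023. Where this likeness comes from was not tested. Because the ZH11 drought libraries chose the members, results with DJ-WT drought libraries are not taken as independent of the rule, and their values are given beside ones without them, except for the interaction, which cannot be had without them.

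In ZH11 seedlings the summed level of the 80 genes was 2035 to 2360.2 CPM under normal conditions, 7174 to 7791 CPM under drought and 247 to 370.4 CPM under heat. The median gene was 3.93-fold higher under drought than under normal conditions (range 2.21 to 60.4) and 4.40-fold lower under heat (range 2.30 to 316). A total of 35 genes would also have passed a drought fold of 3, and 36 a heat fold of 3. Just inside the rule, LOC_Os11g37330 had a lowest drought library 2.01-fold above its highest normal library, and LOC_Os09g39620 a lowest normal library 2.01-fold above its highest heat library. Just outside, LOC_Os09g24924 missed the drought condition at 1.99 and LOC_Os06g05940 missed the heat condition at 1.99.

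**Figure D1:**
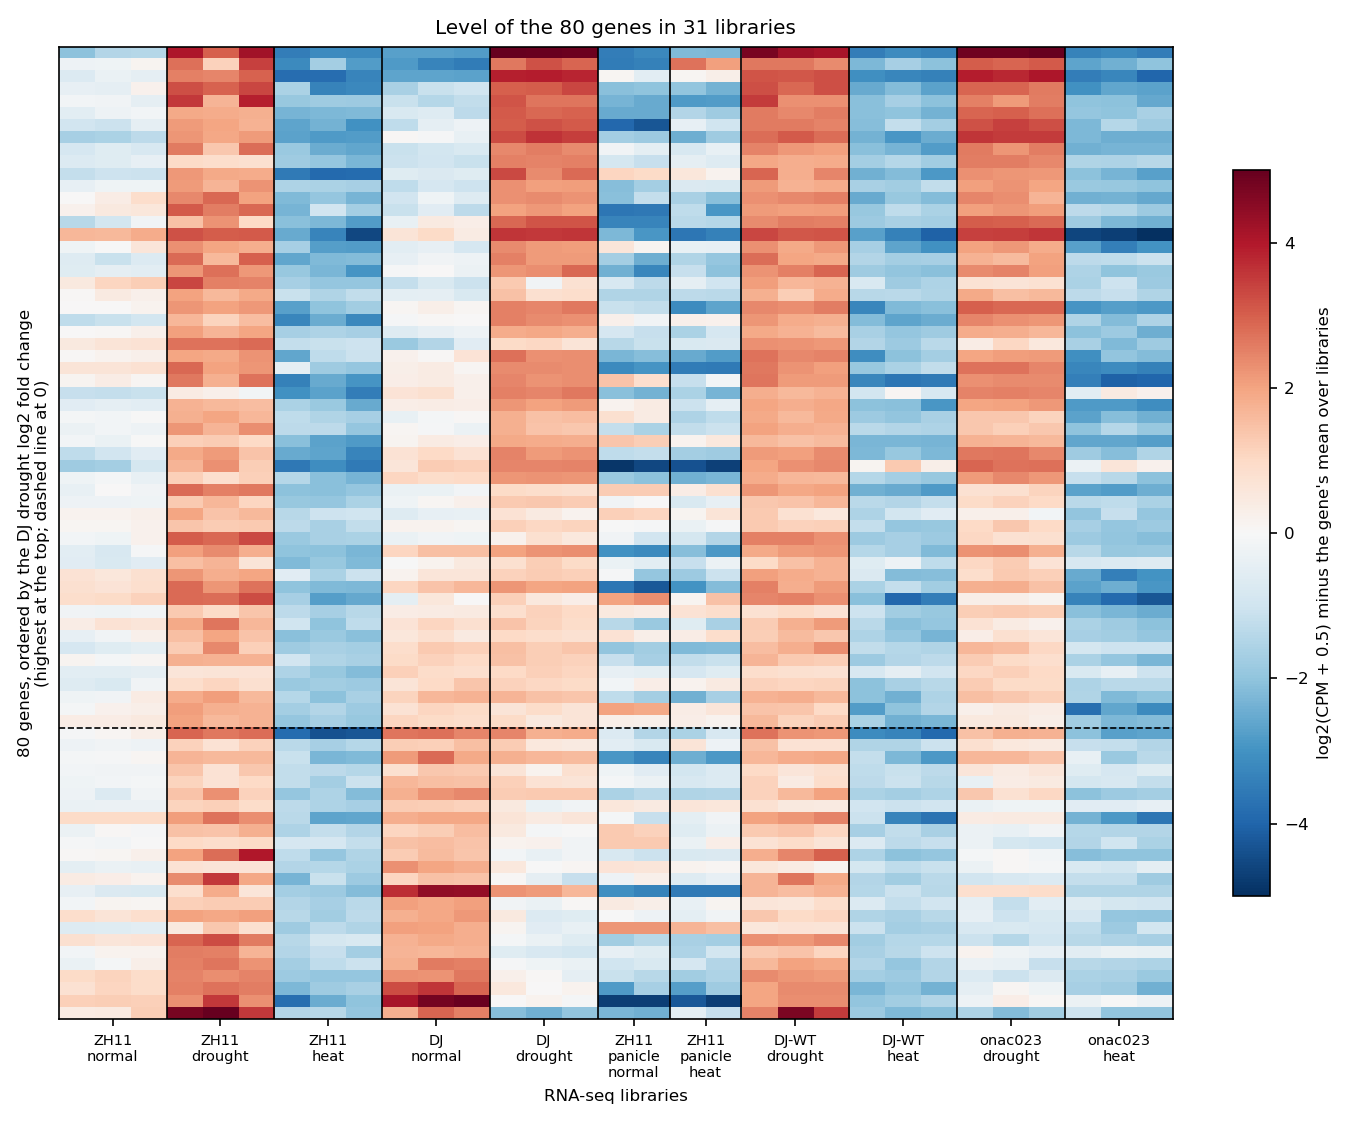
Level of each of the 80 genes (rows) in each of 31 libraries (columns, grouped by variety or line, tissue and condition), as log2(CPM + 0.5) minus the mean of the gene over all libraries. Colours end at 5 and -5, and rows are ordered by the log2 fold change of DJ seedlings under drought. The ZH11 seedling columns show the pattern that chose the genes, the drought columns of DJ and onac023 are high in the upper rows and lower in the bottom rows, and the heat columns of all seedlings are low in most rows.

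Little is known of most of these genes from the sources used here. The supplementary tables of the paper gave a description for 13 of the 80 and only a protein domain name for 4 more, and the other 63 had no annotation. Because most of these tables list genes that differed between DJ-WT and onac023, annotated members are not a random sample. By the words of their descriptions, 2 members were kinases or receptors (LOC_Os01g26390, a DUF26 kinase, and LOC_Os01g05870, a receptor kinase), 1 was a transcription factor (LOC_Os12g41680, the NAC gene OMTN3 or OsNAC60), 1 was a transporter (LOC_Os04g13220, of the ABC family) and 1 matched the words for both oxidoreductases and chaperones (LOC_Os02g55134, a copper chaperone of cytochrome c oxidase, which is itself no oxidoreductase). No member matched the words for cell wall, lipid metabolism, LEA proteins, photosynthesis, defence and specialised metabolism, or transposons. Of the 5048 identifiers annotated in these tables, 117, 129, 19, 77, 77 and 299 matched these words, and 53 to 299 those of each group with members. With only 13 described members, counts this low, or of 0, say little about the groups. The words missed 2 of the remaining 8 described members that may also belong there, a flavin monooxygenase, which is an oxidoreductase, and a B-box zinc finger protein, of a family of transcription regulators. These 8 were an EF hand calcium-binding protein (LOC_Os02g14980), a galactosyltransferase (LOC_Os09g27950), a CCT/B-box zinc finger protein (LOC_Os06g19444), the beta-glucosidase Os4bglu16 (LOC_Os04g43390), the flavin monooxygenase NAL7, also OsCOW1 (LOC_Os03g06654), an actin (LOC_Os05g36290), a tubulin/FtsZ protein (LOC_Os03g11970) and the ribosomal protein L28-1 (LOC_Os01g51020).

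By their identifiers, the members lay on all 12 chromosomes, with 13 on chromosome 1, 10 on chromosome 5, 9 on chromosome 6 and 3 to 8 on each of the others, and 1 model was on an unplaced sequence. Only 2 pairs were direct neighbours among the gene models counted, LOC_Os03g09870 with LOC_Os03g09880 and LOC_Os05g05030 with LOC_Os05g05040. The second pair differed in DJ seedlings: under drought LOC_Os05g05040 fell (log2 fold change -2.58 ± 0.20 (SE), adjusted p = 2.5e-06, edgeR), while LOC_Os05g05030 had a log2 fold change of -0.13 ± 0.21 (adjusted p = 0.58).

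The members that set the extremes of the pattern show what it looked like in single libraries. LOC_Os05g03130, which has no annotation here, had the largest difference between drought and heat, with 0.833, 1.47 and 1.53 CPM in the normal ZH11 libraries, 89.4, 43.0 and 98.9 CPM under drought and 0, 0.119 and 0.101 CPM under heat. It was nearly silent before stress and stood out only under drought. LOC_Os11g02389, also without annotation, took the largest share of counts under drought of any member (not corrected for gene length), with 903, 901 and 1039.8 CPM in the normal libraries, 2647, 2327 and 2407 CPM under drought and 50.2, 28.5 and 11.7 CPM under heat. Here the fall under heat was the larger part of the pattern, and the heat libraries were spread more widely, relative to their mean, than the drought libraries.

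The first question was whether the rise under drought was seen in a variety that the rule did not use. In DJ seedlings, 47 of the 80 genes were called up under drought and 15 were called down (a fold change over 2 with an adjusted p under 0.05), against 25.2% of all 24257 genes tested up and 29.1% down. The members' median log2 fold change was 1.51, with 56 of 80 above 0, and that of all genes was -0.14, with 46.7% above 0. Of the 2735 genes that passed the drought condition of the rule, members included, 54.1% were called up in DJ and 16.9% down. The 58.8% and 18.8% of the members were thus close to what the drought condition by itself gave. Of all genes that passed the heat condition, members included, 7.92% were called up and 52.3% down. In CPM, every DJ drought library lay above every DJ normal library for 46 members and below for 22, against 27.5% and 56.8% of all genes tested, and the groups overlapped for 12.

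Members that rose in DJ did so over a wide range, from 1.16 to 9.64 on the log2 scale with a median of 2.86. LOC_Os05g03130 had 0.334, 0.334 and 0.286 CPM in the normal DJ libraries and 199, 169 and 162 CPM under drought (log2 fold change 9.64 ± 0.16, adjusted p = 5.3e-09). All of its drought libraries in DJ were above all of those in ZH11. LOC_Os01g64670, without annotation, went from 0.906, 0.902 and 0.882 CPM to 129, 133 and 123 CPM (7.70 ± 0.13, adjusted p = 5.3e-09), and its normal level in DJ was below that in every ZH11 normal library. LOC_Os06g02040 had 0.286, 0.0668 and 0 CPM in the normal DJ libraries, 12, 4 and 0 counts, and 34.3, 51.3 and 41.6 CPM under drought (adjusted p = 3.2e-07). LOC_Os11g02389 rose from 448, 558 and 383 CPM to 3448, 3314 and 3464 CPM (3.43 ± 0.19, adjusted p = 3.5e-07).

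Several of the described members were among those that rose in DJ. The actin LOC_Os05g36290, a building block of the cytoskeleton, had 47.3, 51.2 and 45.7 CPM in the normal libraries and 572, 560.1 and 565 CPM under drought (4.10 ± 0.12, adjusted p = 2.2e-08). In ZH11 its drought libraries were at 195, 182 and 172 CPM, well below those of DJ. The galactosyltransferase LOC_Os09g27950 rose by 4.30 ± 0.24 (adjusted p = 3.5e-07) and the EF hand protein LOC_Os02g14980 by 4.15 ± 0.18 (adjusted p = 1.1e-07). EF hands bind calcium, an early messenger in stress responses. The B-box protein LOC_Os06g19444 (2.76 ± 0.31), the glucosidase Os4bglu16 (2.63 ± 0.12), whose class releases lignin precursors from their glucosides, and the copper chaperone LOC_Os02g55134 (2.51 ± 0.16) rose by similar amounts, with adjusted p of 3.1e-05, 1.5e-07 and 7.4e-07. The tubulin/FtsZ protein LOC_Os03g11970 (1.52 ± 0.09) and the DUF26 kinase LOC_Os01g26390 (1.51 ± 0.26) rose less. Of the other members with the largest drought to heat difference in ZH11, LOC_Os02g11760 (4.96 ± 0.20), LOC_Os02g15860 (4.09 ± 0.21), LOC_Os11g03780 (2.58 ± 0.10) and LOC_Os01g37750 (1.97 ± 0.16) rose too, as did LOC_Os05g40010 (1.18 ± 0.27, adjusted p = 0.0028), which was at 0.96 with upper quartile normalization and at 0.97 or 0.92 without replicate 1 of the normal or the drought libraries, short of 2-fold.

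The 15 genes called down in DJ under drought had risen in ZH11 by a median of 3.50-fold. LOC_Os08g26230, without annotation, had 226, 358 and 404 CPM in the normal DJ libraries and 12.8, 14.2 and 11.7 CPM under drought (-4.12 ± 0.21, adjusted p = 2.5e-07), whereas in ZH11 it had 29.9, 30.5 and 29.9 CPM and then 63.1, 151 and 63.7 CPM. Its mean was thus 10.9 times as high in DJ as in ZH11 before stress and lower than in ZH11 after it. LOC_Os10g42040 had 8.72, 19.4 and 14.9 CPM in the normal DJ libraries and 0.116, 0 and 0.172 CPM under drought (adjusted p = 3.9e-06), against 71.3, 162 and 30.1 CPM in ZH11 under drought. Its ZH11 drought libraries were all above every DJ library, normal or dry, and spread widely. The ABC transporter LOC_Os04g13220, of a family that moves diverse compounds across membranes with ATP, had 33.2, 32.2 and 34.4 CPM and then 6.43, 5.45 and 4.98 CPM in DJ (-2.02 ± 0.12, adjusted p = 5.8e-07). The flavin monooxygenase gene NAL7, which acts in auxin synthesis and leaf shape, had 7.87, 8.95 and 10.5 CPM and then 2.96, 1.01 and 1.10 CPM (-1.89 ± 0.36, adjusted p = 0.00093). In both genes the groups did not overlap, and in ZH11 both had risen in every drought library.

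The receptor kinase LOC_Os01g05870 (-1.57 ± 0.35), the ribosomal protein gene LOC_Os01g51020 (-1.91 ± 0.22), LOC_Os07g15940 (-2.02 ± 0.21) and LOC_Os06g38450 (-1.65 ± 0.20) also fell in DJ under drought. Among the 18 members called in neither direction were the NAC gene OMTN3 (LOC_Os12g41680), one of the NAC genes targeted by miR164, with 15.4, 19.7 and 18.1 CPM and then 14.6, 17.6 and 14.2 CPM (0.35 ± 0.14, adjusted p = 0.045), LOC_Os12g02330, with 298, 321 and 316 CPM and then 132, 114 and 126 CPM (-0.78 ± 0.10, adjusted p = 6.6e-05), and LOC_Os07g39740 (-0.04 ± 0.16, adjusted p = 0.85). OMTN3 overlapped between the groups, and LOC_Os12g02330 was lower in every drought library but did not reach a 2-fold change.

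The members that fell in DJ were high there before stress. All 15 genes called down had a mean over 2-fold higher in normal DJ than in normal ZH11 seedlings, with a median ratio of 3.83 (range 2.23 to 32.1). Among the 47 genes called up, 8 were over 2-fold higher in DJ, 11 were under 0.5 times the ZH11 level, and the median ratio was 0.96. The 18 genes not called had a median ratio of 2.96. Over all 80 members the median ratio was 1.79, with 36 over 2, and over all 18319 genes with at least 1 CPM in normal ZH11 seedlings it was 1.26, with 24.6% over 2. The fold change and the ratio share the DJ normal libraries, and the ratio also uses the ZH11 normal libraries that chose the members, so this is a description with no test.

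The 2 varieties also differed in marker genes of leaf and of drought. The summed level of 4 leaf photosynthesis genes fell from 9612 to 12763 CPM in the normal DJ libraries to 193 to 309 CPM under drought, against 14779 to 19665 CPM and 3875 to 8312 CPM in ZH11. The 4 dehydrin genes reached 17609 to 25816 CPM in DJ and 5624 to 13988 CPM in ZH11 under drought, and none was at 0 in either. The part of these differences in the calls was not tested.

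**Figure D2:**
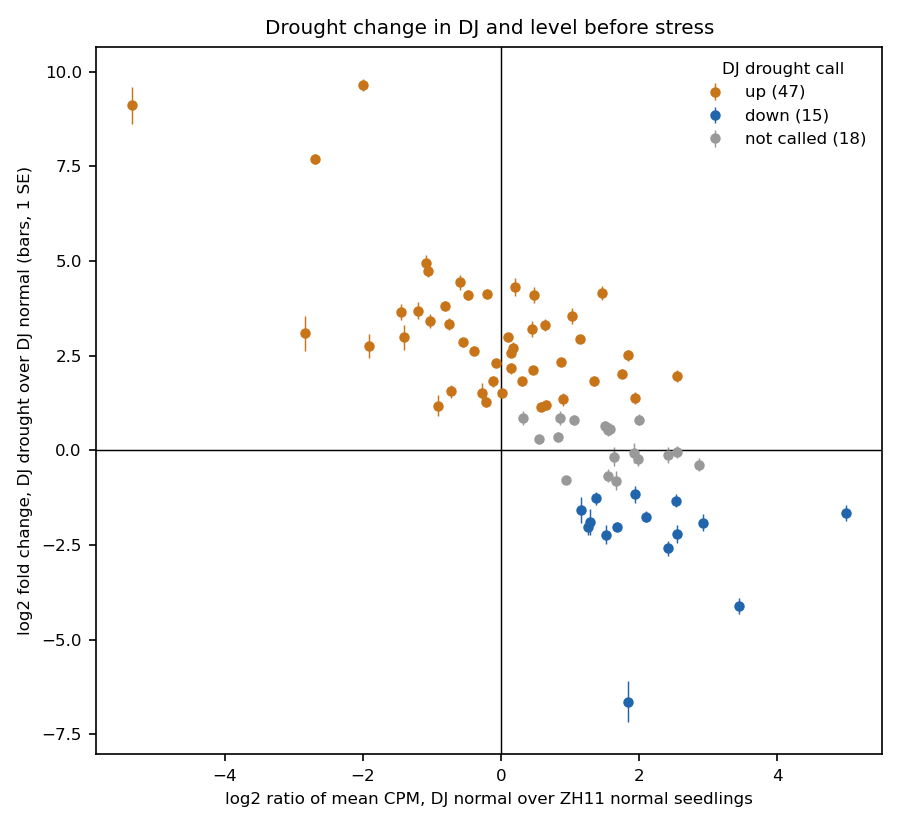
Log2 fold change of each of the 80 genes between DJ seedlings under drought and under normal conditions (vertical axis, bars are 1 SE) against the log2 ratio of their mean CPM in normal DJ over normal ZH11 seedlings (horizontal axis). The 15 genes called down all lie to the right, above a ratio of 2, and the 47 called up lie on both sides. Both axes use the normal DJ libraries.

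The second question was whether the fall under heat was seen beyond ZH11 seedlings. DJ seedlings had no heat libraries in the stress experiment, so the only heat libraries in the DJ background were those of the line comparison, where heat is set against drought. Such a contrast is negative both for a rise under drought and for a fall under heat, so by itself it cannot show the second. In onac023 seedlings, 67 of the 80 genes were called lower under heat than under drought and 0 were called higher, against 24.8% of 23506 genes tested lower and 25.5% higher. At an unadjusted p under 0.05, 1 member was higher, and DESeq2 also called 0 higher. The median log2 fold change of the members was -3.12 and that of all genes -0.04. Of the genes that met the drought condition, 41.8% were called lower in onac023, and 18.1% higher, and of those that met the heat condition 20.1% lower and 28.7% higher. In CPM, every onac023 heat library was below every drought library for 74 members, against 55.0% of all genes tested. The leaf photosynthesis genes moved the other way, from 174 to 266 CPM under drought to 6832 to 9383 CPM under heat in onac023 and from 2804 to 5941 CPM to 6142 to 16621 CPM in DJ-WT, and their part in the calls was not tested.

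LOC_Os04g12540, without annotation, had 67.7, 62.6 and 62.5 CPM in onac023 under drought and 0.614, 0.790 and 0.678 CPM under heat (-5.90 ± 0.14, adjusted p = 5.3e-09). The glucosidase Os4bglu16 (LOC_Os04g43390) had 191, 189 and 158 CPM under drought and 2.53, 2.78 and 2.29 CPM under heat (-5.52 ± 0.15, adjusted p = 8.0e-09). LOC_Os11g02389 went from 3093, 3216 and 3479 CPM to 11.6, 10.4 and 7.79 CPM (-7.73 ± 0.24, adjusted p = 1.0e-08). The heat and drought libraries were far apart in all 3 genes, and their spread within a condition was small beside it.

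The members that had fallen in DJ under drought were different here. All 47 genes called up in DJ under drought were called lower under heat in onac023, with a median log2 fold change of -4.00, but only 4 of the 15 called down in DJ were, with a median of -0.38, as were 16 of the 18 not called in DJ. LOC_Os08g26230 had 10.6, 16.0 and 13.2 CPM under drought and 10.3, 12.3 and 10.6 CPM under heat in onac023 (0.36 ± 0.17, adjusted p = 0.080). LOC_Os04g13220 had 11.3, 8.38 and 7.37 CPM under drought and 6.79, 7.71 and 7.59 CPM under heat (0.34 ± 0.18, adjusted p = 0.11). In both genes the drought and heat libraries overlapped. The 2 comparisons share no library, but onac023 under drought was like DJ under drought: only 1 member was higher and 0 lower in DJ seedlings than in onac023 under drought, against 0.357% and 0.923% of all genes. Shares among all genes called up or down in DJ were not counted, so the split by DJ call is not taken as particular to the members.

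**Figure D3:**
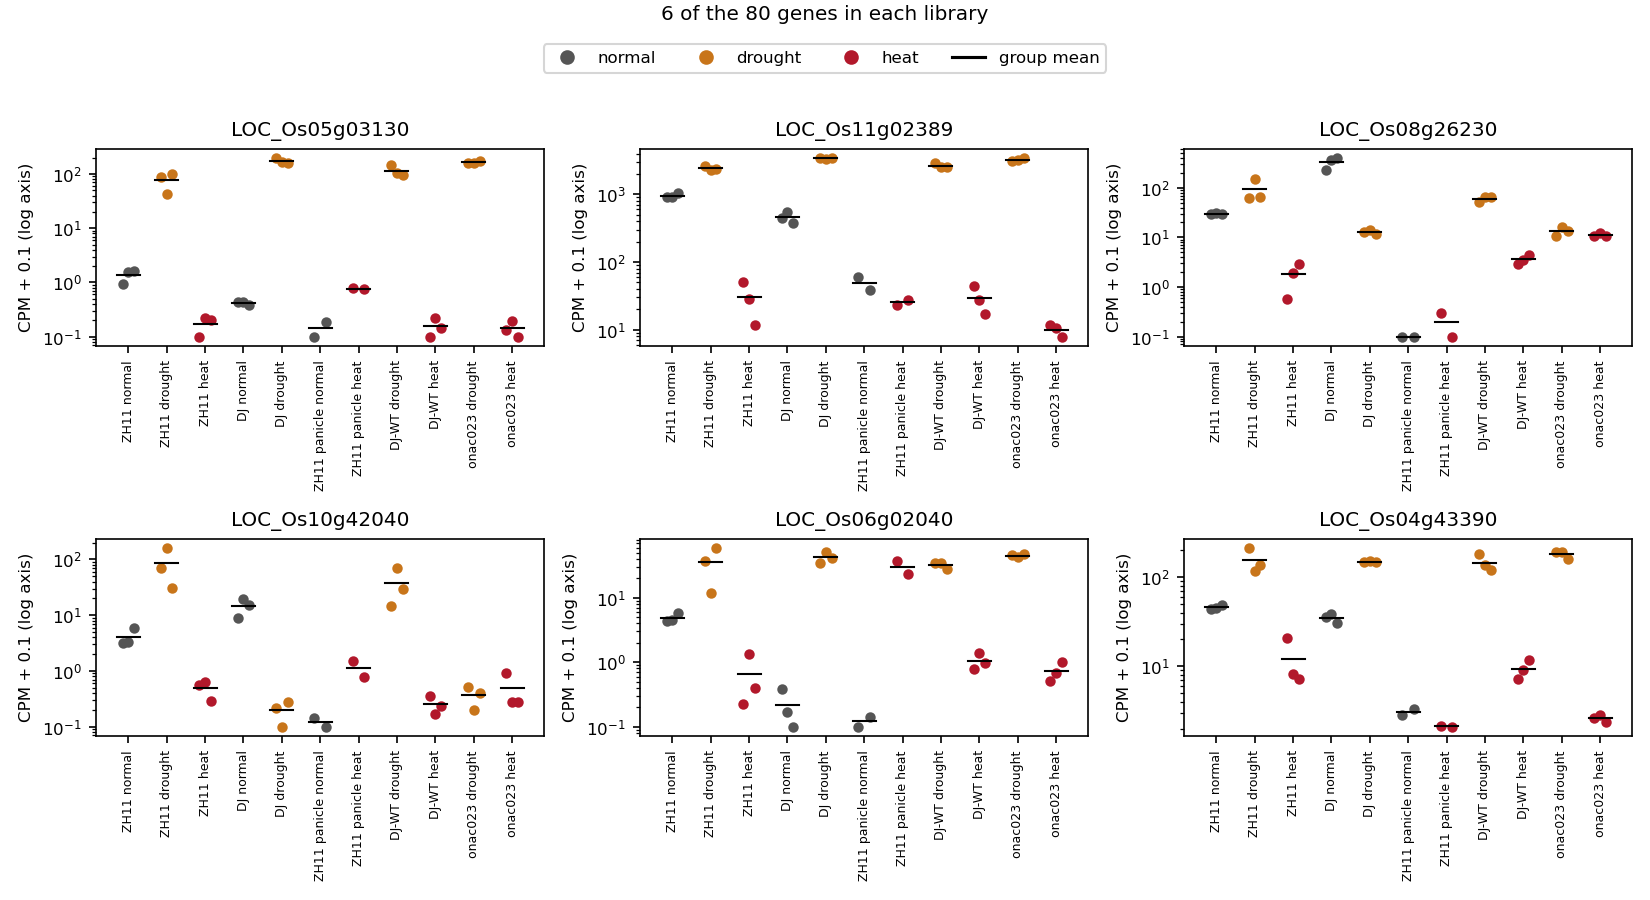
CPM of 6 of the 80 genes in each library (points, with 0.1 added, on a log axis), with the group mean as a line, for normal (grey), drought (orange) and heat (red). LOC_Os05g03130, LOC_Os11g02389 and LOC_Os04g43390 are high in every seedling drought group. LOC_Os08g26230 and LOC_Os10g42040 are high under drought in ZH11 and DJ-WT but low in DJ and onac023, and LOC_Os06g02040 is high in heated panicles.

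In DJ-WT seedlings 76 of the 80 genes were called lower under heat than under drought and 0 higher, against 20.6% and 18.2% of 24960 genes tested. As said above, results with the DJ-WT drought libraries are not taken as independent of the rule. No member was higher at an unadjusted p under 0.05, and DESeq2 called 0 higher. Every heat library was below every drought library for all 80 members, against 57.1% of all genes tested. The 4 members that missed the call, LOC_Os01g37750 (-0.93 ± 0.33), LOC_Os05g46280 (-0.99 ± 0.14), LOC_Os03g09870 (-0.91 ± 0.17) and LOC_Os01g57910 (-0.94 ± 0.20), fell short of the 2-fold threshold alone, with adjusted p up to 0.045. LOC_Os08g01410 had 81.1, 73.4 and 79.1 CPM under drought and 4.99, 4.89 and 4.73 CPM under heat (-3.36 ± 0.12, adjusted p = 8.6e-06). Of the genes that met the drought condition of the rule, 31.1% were called lower and 16.1% higher in DJ-WT, and of those that met the heat condition 36.8% lower and 6.59% higher. Of the 15 genes that fell in DJ under drought, 14 were called lower under heat in DJ-WT, where the drought libraries lay between those of DJ and ZH11. The share among all genes that fell in DJ was not counted.

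Against normal DJ seedlings, 51 of the 80 genes were lower and 1 was higher in onac023 under heat, compared with 23.1% and 22.3% of 24234 genes tested. In DJ-WT under heat the corresponding counts were 58 and 1, compared with 24.2% and 25.1% of all genes tested. Of the genes that met the heat condition of the rule, 45.5% were called lower in onac023 and 58.6% in DJ-WT, with 4.59% and 2.35% higher. Of those that met the drought condition, 14.5% and 14.0% were lower and 37.7% and 42.3% higher. Both comparisons use the same normal libraries, taken from the other experiment, so heat, experiment and, for onac023, the mutation cannot be told apart. The DJ-WT heat libraries also held 34 to 35 of the 36 genes found only in ZH11. Since ZH11 heat libraries chose the members, the DJ-WT counts are not taken as independent of the rule. LOC_Os11g02389 was at 383 to 558 CPM in the normal DJ libraries and at 7.79 to 11.6 CPM in the onac023 heat libraries (-4.20 ± 0.23, adjusted p = 5.0e-07). LOC_Os06g38450 was at 84.3, 142 and 137 CPM in the normal DJ libraries and at 1.84, 1.79 and 1.81 CPM in heated onac023 (-4.70 ± 0.21, adjusted p = 2.2e-07), and LOC_Os05g05040 fell by 5.34 ± 0.28 in DJ-WT (adjusted p = 8.7e-06). The member called higher in both was LOC_Os06g02040, with 0.403, 0.578 and 0.899 CPM in onac023 and 0.673, 1.27 and 0.876 CPM in DJ-WT under heat, above 0 to 0.286 CPM in the normal DJ libraries. These levels are low in all groups, and the call was lost when genes were required to average at least 1 log2 CPM, since the gene was then not tested.

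In ZH11 panicles few of these genes were called under heat. Of 78 members tested, 8 were called up and 4 down under heat, against 8.57% and 1.69% of 27238 genes tested, and the other 68 of the 80 were not called or, for 2, not tested. Of the genes that met the drought condition of the rule, 16.3% were up and 1.43% down, and of those that met the heat condition 3.54% and 2.3%. The share of members up was close to that of all genes. The members' median log2 fold change was 0.19 and that of all genes 0.00. The summed level of the 80 genes was 1118 to 1224 CPM in normal panicles and 811 to 950.3 CPM in heated ones. Under normal conditions, 25 members were under 1 CPM in panicles, and the median ratio of panicle to seedling was 0.43, with 44 members under 0.5 times and 10 over 2 times the seedling level. Over all 18319 genes with at least 1 CPM in normal ZH11 seedlings, the median ratio was 1.11, with 23.3% under 0.5 times and 27.1% over 2 times, and 6.43% were under 1 CPM in panicles. The seedling libraries in these ratios are ones that chose the members, so no test is given.

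LOC_Os06g02040, one of the members that fell in heated ZH11 seedlings (4.25, 4.36 and 5.73 CPM to 0.125, 1.22 and 0.304 CPM), had 0 and 4 counts in the normal panicle libraries and 4630 and 3046 counts, or 36.9 and 23.1 CPM, in the heated ones (adjusted p = 0.0055). LOC_Os05g45070 had 0 counts in both normal panicle libraries and 181 and 182 counts in the heated ones (adjusted p = 0.0096). That is a low level, 1.44 and 1.38 CPM. The galactosyltransferase LOC_Os09g27950 had 0.934 and 0.618 CPM in the normal panicles and 16.2 and 10.5 CPM under heat (4.61 ± 0.44, adjusted p = 0.0079). All 3 genes were higher in both heated panicle libraries and lower in every heated seedling library of ZH11 than in the normal ones. LOC_Os04g38720 fell in panicles as in seedlings, from 27.8 and 20.7 CPM to 5.05 and 6.12 CPM (-1.65 ± 0.21, adjusted p = 0.013), and so did OMTN3, from 37.7 and 34.8 CPM to 11.7 and 14.0 CPM (-1.03 ± 0.15, adjusted p = 0.019).

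With 2 libraries a group these counts were fragile. They ranged from 2 to 12 up and from 1 to 7 down as each library was left out, with 2 up and 1 down without the first heated library, 1 down without the first normal library, 2 down without the second normal library and 7 down without the second heated library. The call of LOC_Os04g38720 was lost without the first heated library (adjusted p = 0.057) and that of OMTN3 without either normal library (0.086 and 0.067).

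**Figure D4:**
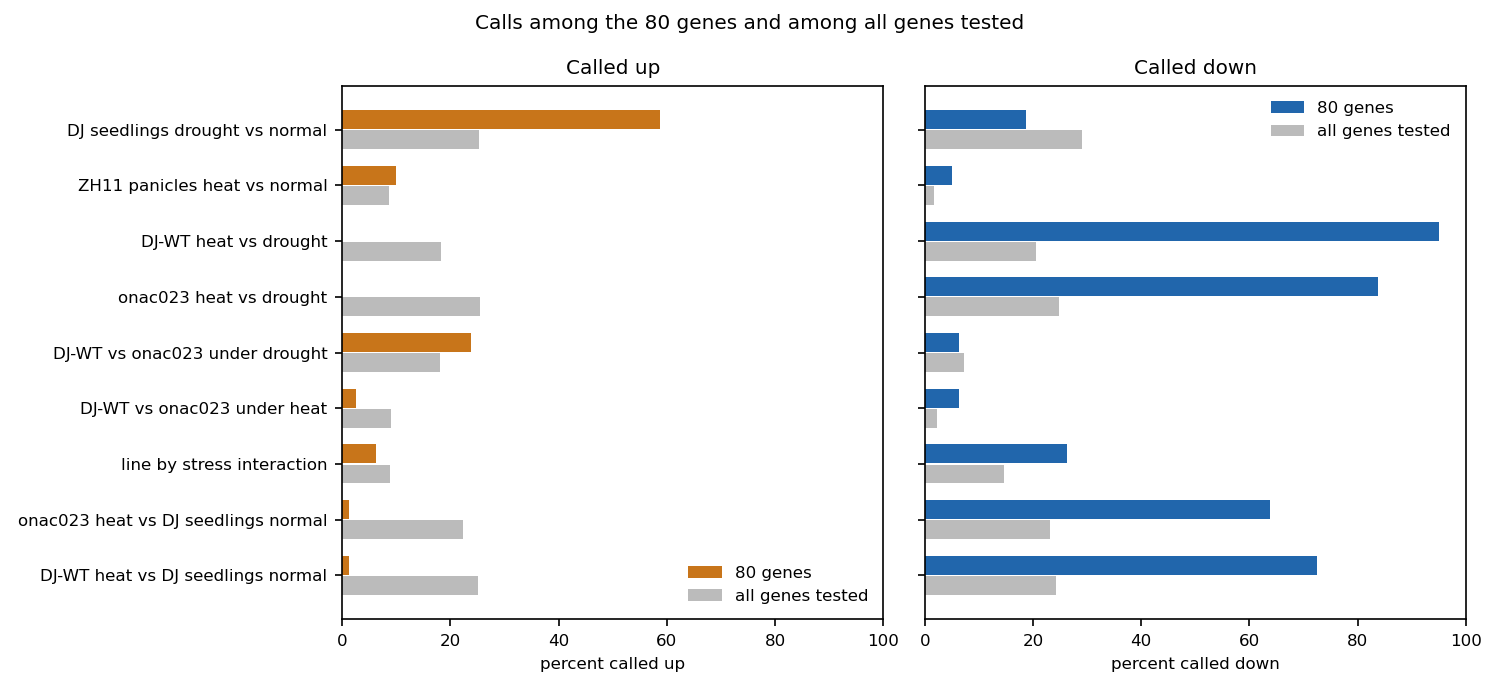
Percent of the 80 genes (coloured bars) and of all genes tested (grey bars) called up (left) and down (right) by more than 2-fold with an adjusted p under 0.05, in each of 9 comparisons. Members were called up in DJ under drought in 58.8%, against 25.2% of all genes, and lower under heat than under drought in 95.0% (DJ-WT) and 83.8% (onac023), against 20.6% and 24.8%. Comparisons with DJ-WT drought libraries are not taken as independent of the rule that chose the members. For the interaction, up and down mean a heat minus drought difference that is higher or lower in DJ-WT than in onac023.

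The last comparisons set DJ-WT against onac023 within each stress, the question being whether the targeted gene bears on the members. Under drought, 19 of the 80 genes were higher and 5 lower in DJ-WT, against 18.1% and 7.21% of 24273 genes tested. Of the genes that met the drought condition, 15.1% were higher and 10.7% lower, and of those that met the heat condition 29.8% and 2.08%. The leaf photosynthesis genes, given above, were also higher under drought in DJ-WT, and their part was not tested. With the DJ seedling drought libraries in place of those of DJ-WT, 1 was higher and 0 lower, and the higher one was not among the 19. LOC_Os05g40010 had 317, 327 and 278 CPM in DJ-WT, against 70.1, 71.0 and 63.1 CPM in onac023 (1.80 ± 0.09, adjusted p = 1.5e-05), 132, 83.01 and 71.3 CPM in DJ and 415, 398 and 549 CPM in ZH11. LOC_Os07g15940 had 9.78, 8.90 and 10.5 CPM in DJ-WT, against 0.502, 0.274 and 0.565 CPM in onac023 (4.06 ± 0.25, adjusted p = 2.1e-05), 1.46, 1.18 and 0.883 CPM in DJ and 15.2, 19.7 and 12.3 CPM in ZH11. In both genes DJ-WT stood between the varieties and onac023 stood beside DJ. The members lower in DJ-WT showed the same order from the other side: the copper chaperone LOC_Os02g55134 had 49.3, 42.6 and 46.7 CPM in DJ-WT, below 77.4, 79.8 and 76.4 CPM in onac023 (-1.13 ± 0.08, adjusted p = 2.6e-05), against 80.8, 76.7 and 86.4 CPM in DJ and 18.1, 16.2 and 12.2 CPM in ZH11.

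This placement held across the members. The mean of DJ-WT under drought lay between the means of ZH11 and DJ for 62 of the 80 genes, and that of onac023 for 24. The shares over all genes were not counted for these, and the ZH11 drought libraries also chose the members. Of the 34 genes whose drought means were over 2-fold apart between the varieties, 25 higher in ZH11 and 9 higher in DJ, DJ-WT lay between for all 34. On a linear scale from 0 at the DJ mean to 1 at the ZH11 mean, these 34 genes had a median position of 0.56 in DJ-WT (quartiles 0.49 and 0.61, range 0.26 to 0.86). In onac023 the median position was -0.05 (quartiles -0.16 and 0.0028, range -0.51 to 0.13). Of 8894 genes of the whole table that were over 2-fold apart, DJ-WT lay between for 96.2%, so the placement is not particular to the members. Under drought, the difference between DJ-WT and onac023 therefore cannot be told apart from the difference between the varieties.

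**Figure D5:**
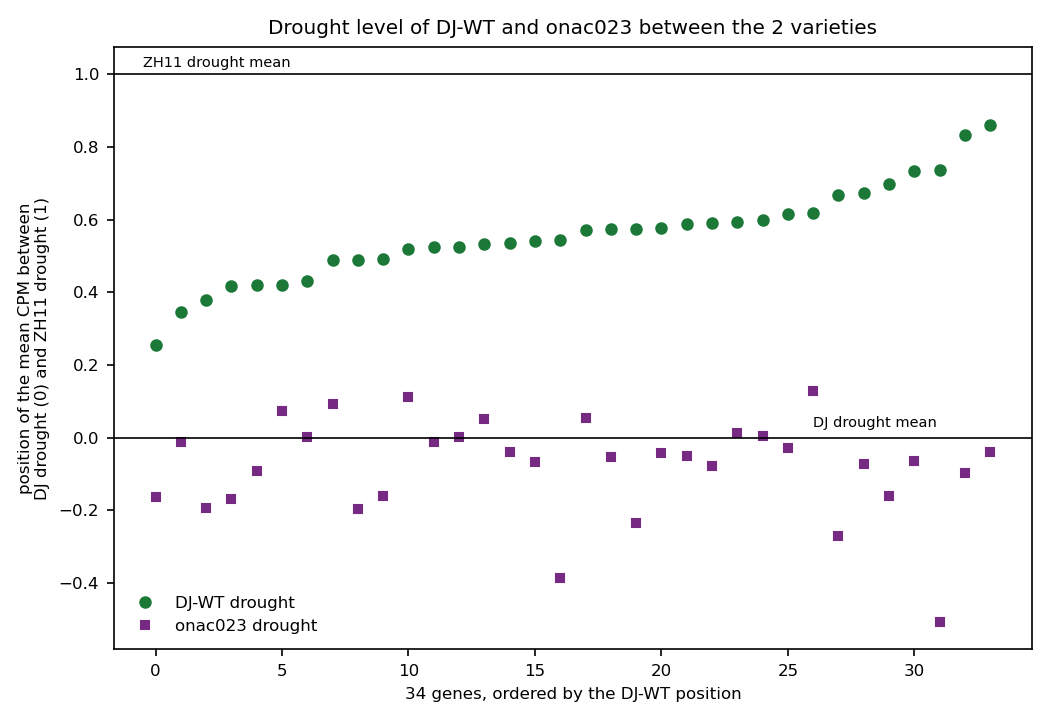
Mean CPM under drought of DJ-WT (green circles) and onac023 (purple squares) placed on a linear scale between the means of DJ (0) and ZH11 (1), for the 34 members whose means in the 2 varieties were over 2-fold apart, ordered by the DJ-WT position. DJ-WT lies between 0.26 and 0.86 for every gene, and onac023 lies between -0.51 and 0.13, with a median of -0.05.

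Under heat, 2 of 74 members tested were higher and 5 lower in DJ-WT than in onac023, against 9.04% and 2.24% of 23459 genes tested, 12.7% and 1.32% of genes that met the drought condition and 1.21% and 4.88% of genes that met the heat condition. With the replicate number as a block, since these numbers paired the libraries, 4 were higher and 6 lower. Os4bglu16 (LOC_Os04g43390) had 7.19, 9.05 and 11.7 CPM in DJ-WT, against 2.53, 2.78 and 2.29 CPM in onac023 (adjusted p = 0.0052). LOC_Os11g02389 had 43.5, 27.1 and 17.0 CPM in DJ-WT, against 11.6, 10.4 and 7.79 CPM in onac023 (1.18 ± 0.33, adjusted p = 0.042). In both genes every DJ-WT library was above every onac023 library, and the second lost its call without any 1 of 5 of the 6 libraries. LOC_Os08g26230 was lower in DJ-WT, with 2.85, 3.43 and 4.23 CPM against 10.3, 12.3 and 10.6 CPM (-2.04 ± 0.20, adjusted p = 0.0012), as was LOC_Os04g13220, with 2.87, 3.50 and 4.54 CPM against 6.79, 7.71 and 7.59 CPM (-1.40 ± 0.21, adjusted p = 0.0056). The DJ-WT heat libraries held 34 to 35 of the 36 genes found only in ZH11 and 42 of the 54 found only in DJ, against 17 to 21 and 45 to 46 in the onac023 heat libraries, and the part of this in the calls was not tested. As libraries were left out, the counts ranged from 1 to 2 higher and from 2 to 6 lower: 1 was higher without any of the onac023 heat libraries or without replicate 2 of DJ-WT, 2 were lower without replicate 1 or 3 of onac023 or replicate 3 of DJ-WT, and 3 were lower without replicate 2 of DJ-WT.

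The heat minus drought difference itself differed between the lines for 26 members, 21 with a lower and 5 with a higher value in DJ-WT, against 14.7% and 8.91% of 25773 genes tested. Of the genes that met the drought condition, 10.5% were lower and 19.7% higher, and of those that met the heat condition 38.5% and 1.48%. Of the 15 members that fell in DJ under drought, 12 were among the 21, and the share among all genes that fell in DJ was not counted. LOC_Os08g26230 had the smallest p, with an interaction of -3.92 ± 0.25 (adjusted p = 6.6e-06): from drought to heat it fell by 3.48 ± 0.18 in DJ-WT and had a log2 fold change of 0.36 ± 0.17 in onac023. NAL7 was among them at -2.47 ± 0.84 (adjusted p = 0.040), a call that was lost in 8 of the 12 fits that left out 1 library, with -0.90 without replicate 1 of onac023 under heat. In the other direction Os4bglu16 (LOC_Os04g43390) fell by 3.33 ± 0.24 in DJ-WT, while in onac023 it fell by 5.52 ± 0.15 (interaction 2.12 ± 0.26, adjusted p = 0.00015). Since the term rests on the DJ-WT drought libraries, no value without them can be had.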

How the data were processed

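Of the 49 samples, the 31 RNA-seq libraries were used and the 18 ChIP-seq samples were not analysed here. The authors deposited, for each library, estimated counts of 55986 MSU gene models, which are whole numbers and not normalized. Per the paper, reads were filtered with fastp and aligned with STAR to the MSU assembly, and the submitters' processing notes also name HISAT2, StringTie and DESeq2. The most frequent low count was 2 in 21 libraries and 4 in 10 (ZH11 normal and heat, seedlings and panicles), and what 1 count is worth is not given in the sources used here. Per-library columns left unused numbered 0.

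Members were chosen by CPM (count over library total). Members and gene lists were chosen with earlier results of these data known. Each test was fitted to the compared groups alone with the quasi-likelihood method of edgeR 4.0.16 under R 4.3.3, after filterByExpr and TMM, with Benjamini-Hochberg adjustment over all genes tested. The SE is the log2 fold change over the square root of F. Alternatives were DESeq2 1.42.0, RLE or upper quartile normalization, no low-count filter or an average of at least 1 log2 CPM, counts scaled to read pairs, a replicate block, each library left out and, for drought, DJ seedlings in place of DJ-WT, and for the rule, other folds, minimums and TMM scaling. The list under TMM scaling was also used for the calls, a choice made after seeing the data. Replicate numbers from the labels paired the libraries only for DJ-WT vs onac023 under heat (correlation of deviations 0.39, 0.33 and 0.12). Named genes are the 12 with the largest ZH11 drought to heat ratio, the 2 with a gene name, the 3 with the highest CPM under drought, and in each comparison the 2 (interaction, 1) with the smallest p called in each direction; others named were chosen after their values were seen. The fits were also tested on simulated data. The reference gene table matched 0 identifiers, so neither coordinates nor sequences are given. Python 3.11.15 was used for the other steps.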

Additional observations from a re-analysis of the deposited data

Results flagged for a closer look

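The heat minus drought difference was tested between DJ-WT and onac023, and 21 members had a lower and 5 a higher value in DJ-WT (edgeR interaction term), against 14.7% and 8.91% of all genes tested and 38.5% and 1.48% of genes that met the heat condition of the rule. This term rests on the DJ-WT drought libraries, which go against their label. The interaction was -3.92 for LOC_Os08g26230 and 2.12 for LOC_Os04g43390 on the log2 scale. For 22 members, every DJ drought library was below every DJ normal library while every ZH11 drought library was above every ZH11 normal library by the rule, and this difference between the varieties was not tested. Among all genes tested 56.8% were below in every DJ drought library, in CPM, where the median gene fell by 0.64 on the log2 scale, and 15 members were called down after TMM normalization. No group held the 4 to 10 samples needed to look for single libraries that stand apart.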

How the results depend on the processing

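The number of genes that met the rule was 263 at a fold of 1.5, 17 at a fold of 3 and 48 with a normal mean of at least 5 CPM, and it ranged from 84 to 134 as each ZH11 library was left out, the highest without the first heat library. With TMM-scaled CPM it was 43, of which 38 are among the 80, and of these 38 DJ seedlings called 26 up and 6 down under drought and onac023 called 34 lower under heat than under drought. Over all 80 genes, the counts for DJ under drought and for heat against drought in either line stayed within 1.5 times the main count under every other tool, normalization, filter, scaling to read pairs, block and left-out library. Requiring an average of at least 1 log2 CPM gave 5 up in heated panicles, 3 lower in DJ-WT under drought, 3 lower in DJ-WT under heat, and 0 higher under heat than in normal DJ for both onac023 and DJ-WT, with fewer members tested. Upper quartile normalization and no filter each gave 3 lower in DJ-WT under drought. DESeq2 and RLE each gave 9 interactions that were higher in DJ-WT. As each library was left out, panicle counts ranged from 2 to 12 up and 1 to 7 down, counts under heat between the lines from 1 to 2 higher and 2 to 6 lower, higher interactions from 4 to 8 (8 without the first DJ-WT heat library), and genes higher in heated onac023 than in normal DJ from 1 to 2. With DJ seedlings in place of DJ-WT under drought, 1 member was higher and 0 were lower, and LOC_Os08g26230 (-0.14) and LOC_Os04g13220 (-0.78) changed sign. The causes of these changes were not tested. With the replicate block, 4 members were higher and 6 lower in DJ-WT under heat, and no other count moved by over 1.5 times. For single named genes, 1741 of the alternative values kept their call, 39 kept only their direction and 2 changed sign. Alternatives in which a gene was not tested, as for LOC_Os06g02040 above, are not in this tally. With 3 or 2 libraries a group, some calls of changes close to 2-fold were lost, and so were some of larger changes. LOC_Os07g39740 lost its call between the lines under heat without replicate 3 of onac023 (log2 fold change -2.01, adjusted p = 0.071, edgeR). The interaction of NAL7 lost its call without replicate 3 of DJ-WT under heat (-2.60, adjusted p = 0.060, edgeR).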
